A study of Mus musculus with 18 samples.

Results

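The TNF superfamily ligands described here are 10 genes, *Tnf*, *Lta*, *Ltb*, *Tnfsf4*, *Tnfsf9*, *Tnfsf10*, *Tnfsf13b*, *Tnfsf14*, *Tnfsf15* and *Cd70*. They were chosen by name as cytokines of this family with a role in immune cells, with earlier results of these data known. Other ligands of the family are given as a separate list below. Counts among the 10 therefore describe these genes and not the whole family. Each symbol matched 1 entry, so that the 10 genes stand for 10 of the 62197 entries in the table of the series. All 10 passed the filter on low values that left 17875 genes to be tested (10 or more normalized counts in 3 or more libraries).

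Most ligands of this family are membrane proteins that assemble as trimers and bind receptors of the TNF receptor superfamily on neighboring cells, and several are also released by proteases. In dendritic cells (DCs) they serve several roles. TNF and lymphotoxins drive inflammation and the organization of lymphoid tissue, OX40 ligand, CD137 ligand and CD70 costimulate T cells, and BAFF, the product of *Tnfsf13b*, keeps B cells alive. TRAIL, the product of *Tnfsf10*, binds death receptors, LIGHT, the product of *Tnfsf14*, binds HVEM and the lymphotoxin beta receptor, and TL1A, the product of *Tnfsf15*, binds DR3. Lipopolysaccharide (LPS), a bacterial ligand of TLR4, is a standard stimulus of *Tnf* in DCs.

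Bulk RNA-seq was done on mouse bone marrow-derived DCs, grown for 10 days with GM-CSF, from cPLA_2_ WT and cPLA_2_ KO mice. Per the study's methods, cPLA_2_ KO cells came from mice with a conditional *Pla2g4a* allele crossed with *Itgax*-cre, on the C57BL/6 background, so that deletion depends on the CD11c promoter and may not reach cells in the culture that lack CD11c. Cells of each genotype were left nonconfined, squeezed to a height of 3 µm (confined) and collected 4 h later, or treated with 100 ng ml-1 LPS for 30 min, washed and collected the next day, with 3 libraries in each of the 6 groups. The LPS time is that of the labels, and the study's methods give a slightly shorter one. The study calls its libraries biological replicates, but the sources used here do not say whether the 3 of a group came from separate mice or cultures, so that p-values measure the spread between these libraries. Libraries held between 33027230 and 61300021 reads on genes.

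Labels were first set against the targeted gene and against sex-linked genes. *Pla2g4a*, which encodes cPLA_2_, was at 697, 686 and 770 normalized counts in nonconfined cPLA_2_ WT libraries and at 548, 542 and 533 in nonconfined cPLA_2_ KO libraries. In confined cells it was at 1369, 1430 and 1321 normalized counts in cPLA_2_ WT and at 923, 871 and 920 in cPLA_2_ KO libraries. cPLA_2_ KO libraries were therefore lower in both conditions but retained reads of the gene, and its level counts the whole gene, not the deleted part alone. In LPS libraries *Pla2g4a* ranged from 967 to 1005 normalized counts under the WT label and from 1028 to 1065 under the KO label, so that no library labelled KO was below a library labelled WT.

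The Y-linked gene *Ddx3y* was at no more than 3.05 normalized counts in each nonconfined and confined cPLA_2_ WT library and at 874 to 1036 in each cPLA_2_ KO library, so that genotype and donor sex cannot be told apart in these 12 libraries. LPS libraries went against this. Those labelled WT were at 1271, 0 and 662 normalized counts of *Ddx3y* in replicates 1, 2 and 3, and those labelled KO were at 2.12, 1476 and 783. *Eif2s3y*, *Kdm5d* and *Uty* were ordered in the same way over the 3 levels, with *Eif2s3y* at 799, 1.83 and 448 normalized counts under the WT label and at 2.12, 863 and 505 under the KO label. *Xist*, which is expressed from the inactive X chromosome, was present in all 18 libraries. It was at 27953 to 33681 normalized counts in nonconfined and 22734 to 33482 in confined cPLA_2_ WT libraries. In cPLA_2_ KO libraries it was at 12153 to 19081 when nonconfined and 16980 to 24835 when confined. These libraries thus held both *Xist* and Y-linked transcripts, and whether donors of both sexes were mixed was not tested. LPS libraries held 26298 to 27791 under the WT label and 16450 to 30960 under the KO label. The labelled genotypes of LPS libraries are therefore in doubt, and LPS results are given for both labels together. Log2 fold changes of the 10 ligands with LPS are also given without 4 libraries, a choice made after seeing the data. These go against or lie between the levels of their label (WT replicates 1 and 3, KO replicates 1 and 3). Confined cells are compared with LPS in this way for some ligands only, and the other gene lists use all LPS libraries. Libraries with like levels were also checked for being 1 library given under both labels. The mean chi-square per gene would then be about 1 if reads were sampled apart from each other. Per the study's methods sequencing was paired-end, and counting both reads of a pair would raise that value. It was 5.10 for KO replicate 1 and WT replicate 2, 6.13 for KO replicate 3 and WT replicate 3 and 12.2 for KO replicate 2 and WT replicate 1, none of them at the level of a library given again. Separate libraries differ by more than the sampling of reads in any case, and this check does not tell whether 2 libraries share a culture. Pairs of LPS libraries under the same label were at 9.705 to 44.2, so that 2 of the 3 pairs across labels were closer than any pair within a label, and pairs within the nonconfined and confined groups were at 3.93 to 16.7.

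The cultures were set against marker lists of the cell types they could hold, since GM-CSF cultures of bone marrow also give rise to granulocytes and macrophages. Per the study's methods these are set apart by adhesion, with nonadherent granulocytes lost on the way and only semiadherent cells collected, most of them positive for CD11c. Of the conventional DC list, 8 of 8 genes passed the filter, and the summed level was 346300 to 384380 normalized counts in confined, 413370 to 517840 in nonconfined and 513660 to 605650 in LPS libraries, with *Cd74* as its most abundant gene. The defining DC gene *Itgax* was at 4194 to 7192 normalized counts in all libraries. *Flt3*, the other defining gene, was at 113 to 128 normalized counts in nonconfined and 31.9 to 53.2 in confined cPLA_2_ WT libraries, at 124 to 166 in nonconfined and 27.0 to 34.1 in confined cPLA_2_ KO libraries, and at 89.1 to 154 with LPS, so that it was lowest in confined libraries of both genotypes. Macrophage genes were also present throughout, with a summed level of 50313 to 70093 normalized counts, 8 of 8 genes past the filter, *Csf1r* as the most abundant and *Adgre1* at 5676 or more.

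Granulocyte genes differed between the groups. Summed neutrophil genes, led by *S100a9* with 8 of 8 past the filter, were at 224520 to 229850 normalized counts in nonconfined cPLA_2_ WT libraries and at 316210 to 352510 in nonconfined cPLA_2_ KO libraries. In confined cells the sum was 134700 to 143580 in cPLA_2_ WT and 313120 to 328870 in cPLA_2_ KO libraries, and in LPS libraries it was 257580 to 292850. Confined cPLA_2_ WT libraries were thus the lowest of all, and their defining gene *Ly6g* was at 184 to 259 normalized counts, against 804 to 818 in confined cPLA_2_ KO libraries. Summed eosinophil genes, led by *Prg2* with 6 of 6 past the filter, were at 7998 to 8520 normalized counts in confined cPLA_2_ WT, 19339 to 20344 in confined cPLA_2_ KO, 30259 to 30484 in nonconfined cPLA_2_ WT, 69164 to 74361 in nonconfined cPLA_2_ KO and 25084 to 43274 in LPS libraries. Their defining gene *Epx* was at 1110 or more normalized counts in all libraries. Mast cell and basophil genes, led by *Cpa3* with 7 of 7 past the filter, summed to 4258 to 4413 normalized counts in confined cPLA_2_ WT, 7334 to 7609 in confined cPLA_2_ KO, 9769 to 9936 in nonconfined cPLA_2_ WT, 14155 to 14719 in nonconfined cPLA_2_ KO and 9057 to 10364 in LPS libraries, with *Mcpt8* at 521 or more and *Ms4a2* at 73.7 or more. T and NK cell genes, led by *Cd3g* with 6 of 9 past the filter, summed to 2512 to 2581 normalized counts in nonconfined cPLA_2_ WT, 809 to 949 in confined cPLA_2_ WT, 2936 to 3236 in nonconfined cPLA_2_ KO, 1081 to 1331 in confined cPLA_2_ KO and 555.8 to 625.9 in LPS libraries, whereas *Cd3e* was at no more than 32.6 and *Ncr1* was at 0 in all 6 confined libraries. The part of these cell types in the results on the ligands was not tested, and fewer cells of a type and less RNA per cell cannot be told apart in bulk libraries.

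The first comparison asks which ligands change when cPLA_2_ WT DCs are confined. Of the 10 ligands 7 rose and 1 fell in confined against nonconfined cPLA_2_ WT cells (limma over all genes tested, called where the adjusted p was below 0.05 and the log2 fold change beyond 1 in either direction), where 11.4% of all genes tested were higher and 7.62% lower by the same rule. The median log2 fold change of the 10 was 1.69 and that of all genes tested was -0.01. When all libraries were brought to an equal total, the median of all genes shifted to -0.23 and the calls from 2038 higher and 1362 lower to 1617 higher and 2166 lower, and the 7 ligands were still called higher.

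*Tnfsf15*, whose product TL1A costimulates T cells and innate lymphoid cells through DR3, was at 216, 234 and 217 normalized counts in nonconfined cPLA_2_ WT libraries and at 8584, 8739 and 8892 in confined cPLA_2_ WT libraries. The groups did not overlap, and the rise was 39.1-fold (log2 fold change 5.29, SE 0.07, adjusted p = 1.74e-23). In cPLA_2_ KO cells it was at 192, 210 and 184 normalized counts when nonconfined and at 270, 238 and 297 when confined, a log2 fold change of 0.45 (adjusted p = 1.22e-05) that was under the threshold on the fold. The interaction, the difference between the cPLA_2_ KO and the cPLA_2_ WT response, was -4.84 on the log2 scale (SE 0.10, adjusted p = 1.52e-19).

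*Tnfsf9* encodes CD137 ligand, a costimulator of CD8 T cells. It was at 700, 610 and 649 normalized counts in nonconfined and at 5194, 5028 and 5077 in confined cPLA_2_ WT libraries. Nonconfined cPLA_2_ KO libraries held 669, 581 and 720 normalized counts and confined cPLA_2_ KO libraries 478, 518 and 449. The cPLA_2_ WT groups were far apart, with a 7.81-fold rise (log2 fold change 2.97, SE 0.07, adjusted p = 5.94e-19), and the cPLA_2_ KO groups did not overlap either, with a value in the other direction (log2 fold change -0.44, adjusted p = 2.14e-05). The interaction was -3.41 (SE 0.10, adjusted p = 6.1e-17).

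*Tnfsf10*, which encodes the death receptor ligand TRAIL, was at 41.9, 56.3 and 51.1 normalized counts in nonconfined cPLA_2_ WT libraries and at 400.1, 401.3 and 400.4 in confined cPLA_2_ WT libraries, a 7.97-fold rise (log2 fold change 2.99, SE 0.17, adjusted p = 2.6e-12). In cPLA_2_ KO libraries it was at 54.1, 47.5 and 34.9 normalized counts when nonconfined and at 10.8, 10.7 and 12.8 when confined, and thus fell (log2 fold change -1.89, SE 0.17, adjusted p = 1.09e-08). *Tnfsf10* moved in opposite directions in the 2 genotypes, with an interaction of -4.88 (SE 0.24, adjusted p = 7.42e-13). Levels in confined cPLA_2_ KO cells rest on 10 to 14 reads a library, and at such levels a fold on the scale of log2(normalized count + 1) understates the change.

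*Cd70*, the ligand of CD27 on T cells, followed the same course at low levels. It was at 43.4, 54.6 and 31.4 normalized counts in nonconfined and at 162, 137 and 139 in confined cPLA_2_ WT libraries. In cPLA_2_ KO libraries it was at 53.3, 41.9 and 56.3 normalized counts when nonconfined and at 18.3, 26.7 and 16.4 when confined. It rose 3.401-fold in cPLA_2_ WT cells (log2 fold change 1.77, SE 0.19, adjusted p = 6.02e-08) and fell in cPLA_2_ KO cells (log2 fold change -1.28, SE 0.19, adjusted p = 9.76e-06), with an interaction of -3.05 (SE 0.27, adjusted p = 1.05e-08).

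*Tnf* itself was at 5329, 5014 and 5094 normalized counts in nonconfined cPLA_2_ WT libraries and at 18277, 17340 and 17701 in confined cPLA_2_ WT libraries. In cPLA_2_ KO libraries it was at 6123, 6187 and 5837 normalized counts when nonconfined and at 7690, 7084 and 7382 when confined. The rise in cPLA_2_ WT cells was 3.45-fold (log2 fold change 1.79, SE 0.15, adjusted p = 1.17e-09). cPLA_2_ KO groups did not overlap but had a log2 fold change of only 0.29, which did not pass (SE 0.15, adjusted p = 0.122). LPS libraries, in which *Tnf* varied most, enter that error, and with the nonconfined and confined cPLA_2_ KO groups alone the SE was 0.05 and the adjusted p = 0.000925, with the fold change still under the threshold. The interaction was -1.50 (SE 0.21, adjusted p = 1.02e-05).

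*Tnfsf4*, which encodes OX40 ligand, was at 555, 572 and 565 normalized counts in nonconfined and at 1732, 1806 and 1678 in confined cPLA_2_ WT libraries. In cPLA_2_ KO libraries it was at 486, 494 and 537 normalized counts when nonconfined and at 367, 358 and 400.1 when confined. It rose 3.08-fold in cPLA_2_ WT cells (log2 fold change 1.62, SE 0.16, adjusted p = 1.16e-08), whereas the cPLA_2_ KO value was -0.43 (adjusted p = 0.0284), under the threshold on the fold. The interaction was -2.05 (SE 0.22, adjusted p = 2.41e-07).

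*Tnfsf14*, which encodes LIGHT, differed from these 6 genes in that cPLA_2_ KO cells were close to cPLA_2_ WT cells under confinement. It was at 752, 718 and 742 normalized counts in nonconfined and at 1965, 1895 and 1849 in confined cPLA_2_ WT libraries, and at 1003, 1030 and 1061 in nonconfined and 1845, 1747 and 1699 in confined cPLA_2_ KO libraries. The rise in cPLA_2_ WT cells was 2.58-fold (log2 fold change 1.37, SE 0.11, adjusted p = 9.59e-10), and the cPLA_2_ KO value was 0.77 (adjusted p = 7.85e-06), under the threshold on the fold. The interaction of -0.59 (SE 0.16, adjusted p = 0.0077) did not reach the threshold on the fold either. Nonconfined cPLA_2_ KO libraries were already above nonconfined cPLA_2_ WT libraries without overlap.

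*Ltb* encodes lymphotoxin beta, which anchors lymphotoxin alpha at the membrane. It was at 4077, 3831 and 3948 normalized counts in nonconfined and at 1997, 1953 and 1934 in confined cPLA_2_ WT libraries, and was the ligand that fell (log2 fold change -1.01, SE 0.05, adjusted p = 2.85e-13). cPLA_2_ KO libraries held 3865, 3318 and 3591 normalized counts when nonconfined and 1832, 1845 and 1833 when confined, with a log2 fold change of -0.96 (SE 0.05, adjusted p = 1.99e-12) just short of the threshold on the fold. Both responses were alike in size in the main fit, with an interaction of 0.05 and a 95% interval from -0.10 to 0.20. The interaction ranged from -0.01 to 0.23 under alternatives. With the same total per library the values were -1.23 in cPLA_2_ WT and -1.0004 in cPLA_2_ KO cells. Since both values lie at the threshold, the call in cPLA_2_ WT cells was lost without nonconfined WT replicate 1 (-0.99) and without confined WT replicate 3 (-0.9998), and the cPLA_2_ KO value was called without nonconfined KO replicate 2 (-1.02), with the same total per library (-1.0004), with TMM scaling (-1.01) and with edgeR (-1.01, adjusted p = 4.15e-12).

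*Lta* encodes lymphotoxin alpha, the soluble partner of the same complex. It was at 434, 367 and 369 normalized counts in nonconfined and at 306, 298 and 296 in confined cPLA_2_ WT libraries, and at 239, 231 and 209 in nonconfined and 127, 106 and 91.1 in confined cPLA_2_ KO libraries. The cPLA_2_ WT value was -0.37 (SE 0.15, adjusted p = 0.0449), under the threshold on the fold, and the gene fell in cPLA_2_ KO cells (log2 fold change -1.07, SE 0.15, adjusted p = 7.17e-06). Without confined KO replicate 3 that call was lost, at -0.96. The interaction was -0.70 (SE 0.22, adjusted p = 0.0216), also under the threshold on the fold.

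*Tnfsf13b*, which encodes BAFF, was the ligand with the widest spread. Confined cPLA_2_ WT libraries held 30.0, 48.9 and 93.6 normalized counts, and nonconfined cPLA_2_ WT libraries 87.6, 98.1 and 94.3. In cPLA_2_ KO libraries it was at 127, 136 and 90.3 normalized counts when nonconfined and at 64.7, 62.9 and 101 when confined. Groups overlapped in both genotypes, and neither the cPLA_2_ WT value of -0.84 (SE 0.30, adjusted p = 0.0215) nor the cPLA_2_ KO value of -0.63 (SE 0.30, adjusted p = 0.0922) was called. The cPLA_2_ WT value was called at -1.26 without confined WT replicate 3, and at -1.06 with the same total per library, whereas without confined WT replicate 1 it was -0.46 and not called.

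**Figure D1:**
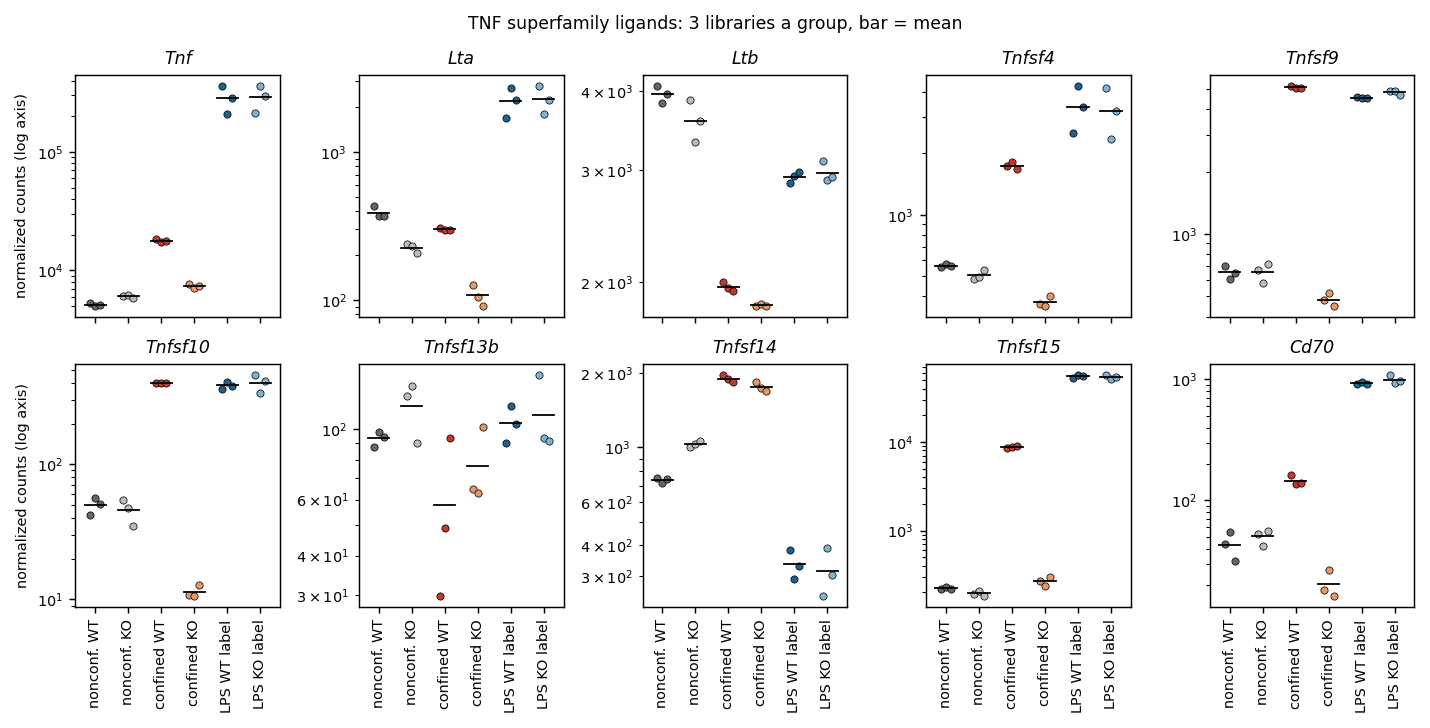
Normalized counts of the 10 ligands in 18 libraries on a log axis, with 3 libraries and a bar at their mean for each of the 6 groups. *Tnfsf15* lies between 8584 and 8892 in confined WT and between 238 and 297 in confined KO libraries, while *Ltb* is lower in confined than in nonconfined libraries of both genotypes.

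In cPLA_2_ KO cells, 0 of the 10 ligands rose and 3 fell with confinement (*Lta*, *Tnfsf10* and *Cd70*), where 6.43% of all genes tested were higher and 5.53% lower. The median of the 10 was -0.54 on the log2 scale and that of all genes tested was 0.01. At an unadjusted p under 0.05 limma had 9 of the 10, with *Tnfsf14* and *Tnfsf15* higher, where 52.1% of all genes tested passed in either direction. With edgeR and DESeq2 4 and 3 ligands were called, none of them higher, where 11.9% and 12.8% of all genes were called. For the interaction of confinement and genotype 6 of the 10 ligands were lower (*Tnf*, *Tnfsf4*, *Tnfsf9*, *Tnfsf10*, *Tnfsf15* and *Cd70*) and 0 higher, where 6.56% of all genes tested were lower and 1.11% higher. At an unadjusted p under 0.05, where 16.5% of all genes were higher, and with edgeR and DESeq2, 0 ligands were higher as well. With the same total per library the interaction was higher for 514 and lower for 1007 genes in place of 198 and 1173, the median of all genes shifted from 0.05 to 0.24, and 6 ligands were called.

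Confined cPLA_2_ KO cells were compared with confined cPLA_2_ WT cells directly. *Tnf*, *Lta*, *Tnfsf4*, *Tnfsf9*, *Tnfsf10*, *Tnfsf15* and *Cd70* were lower in cPLA_2_ KO cells, 7 of 10, and 0 were higher, where 7.31% of all genes tested were lower and 2.79% higher, and 0 were higher at an unadjusted p under 0.05, where 22.9% of all genes were, or with edgeR and DESeq2. *Tnfsf15* was 32.6-fold and *Tnfsf10* 32.5-fold lower in cPLA_2_ KO cells (log2 fold changes -5.03 and -5.02, adjusted p = 7.95e-23 and 5.16e-16), followed by *Tnfsf9* at 10.6-fold and *Cd70* at 6.97-fold. *Tnfsf4* was 4.63-fold, *Lta* 2.79-fold and *Tnf* 2.41-fold lower. *Ltb*, *Tnfsf13b* and *Tnfsf14* were not called, with 95% intervals of the log2 difference from -0.20 to 0.01, from -0.11 to 1.14 and from -0.34 to 0.12. Under alternatives these differences ranged from -0.11 to 0.06, from 0.14 to 0.94 and from -0.14 to 0.05. With the same total per library 788 genes were higher and 1107 lower in place of 498 and 1307, the median of all genes shifted from 0.04 to 0.19, and 7 ligands were called. In the same libraries the granulocyte lists were higher in cPLA_2_ KO cells, as given above.

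Nonconfined cPLA_2_ KO cells were compared with nonconfined cPLA_2_ WT cells to see whether the ligands differed before confinement. By limma 0 of 10 ligands were called, where 0.85% of all genes tested were higher and 0.302% lower, and edgeR and DESeq2 also called 0. At an unadjusted p under 0.05 the count was 4 of 10, where 22.4% of all genes tested passed. *Lta* was lower in each of the 3 cPLA_2_ KO libraries, with a log2 fold change of -0.78 (SE 0.15, adjusted p = 0.00287), and *Tnfsf14* was higher in each, with 0.48 (SE 0.11, adjusted p = 0.00962), both under the threshold on the fold. The others of these 4 were lower in cPLA_2_ KO cells, *Ltb* with -0.14 (adjusted p = 0.0949) and *Tnfsf15* with -0.19 (adjusted p = 0.0961), and did not pass the adjusted test. Libraries of the 2 genotypes did not overlap for *Tnfsf15* either. The same held for *Tnf*, with 0.23 (adjusted p = 0.386), and *Tnfsf4*, with -0.16 (adjusted p = 0.612), neither of which passed. *Tnfsf9* had a log2 difference of 0.01 with a 95% interval from -0.14 to 0.15, so that a difference of the size seen under confinement lies outside it.

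LPS-treated cells served as the reference for a microbial stimulus. The fit treats each LPS library as separate. Whether libraries that were close across labels came from the same culture was not tested, and p-values of LPS comparisons hold only if they did not. Of the 10 ligands 7 rose and 1 fell in LPS against nonconfined cells, where 15.6% of all genes tested were higher and 13.4% lower. With the same total per library, 1774 genes were higher and 4675 lower in place of 2791 and 2397, the median of all genes shifted from 0.02 to -0.47, and 8 ligands were called. Without the 4 doubtful libraries 1 library is left under each label, so that only log2 fold changes are given for that setting, beside each ligand below.

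*Tnfsf15* showed the largest rise of the 10 ligands with LPS. It was at 52004, 56610 and 55528 normalized counts in libraries labelled WT and at 56414, 51688 and 53930 in those labelled KO, against 184 to 234 in the 6 nonconfined libraries. The rise was 260-fold (log2 fold change 8.02, SE 0.05, adjusted p = 1.14e-29), and 8.01 without the 4 libraries. *Tnf* was at 356120, 206871 and 285583 normalized counts under the WT label and at 210952, 362627 and 294859 under the KO label, a 50.1-fold rise (log2 fold change 5.65, SE 0.10, adjusted p = 1.74e-21) that was 5.62 without the 4 libraries. *Cd70* ranged from 921 to 1082 normalized counts in LPS libraries and rose 20.5-fold (log2 fold change 4.36, SE 0.13, adjusted p = 1.19e-17), with 4.34 without the 4 libraries.

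Smaller rises were seen in 4 further ligands. *Tnfsf10* ranged from 336 to 456 normalized counts with LPS and rose 8.15-fold (log2 fold change 3.03, adjusted p = 1.48e-15, 2.95 without the 4 libraries). *Lta*, at 1690 to 2806 normalized counts, rose 7.43-fold (log2 fold change 2.89, adjusted p = 4.8e-16, 2.90 without them). *Tnfsf9*, at 4540 to 4899 normalized counts, rose 7.15-fold (log2 fold change 2.84, adjusted p = 5e-22, 2.85 without them). *Tnfsf4*, at 2350 to 4296 normalized counts, rose 6.05-fold (log2 fold change 2.60, adjusted p = 3.9e-15, 2.57 without them). *Lta* thus rose with LPS, whereas under confinement it was not called in cPLA_2_ WT cells and fell in cPLA_2_ KO cells.

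*Tnfsf14* was the ligand that fell with LPS. It ranged from 250.3 to 391 normalized counts in LPS libraries against 718 to 1061 in nonconfined libraries (log2 fold change -1.44, SE 0.08, adjusted p = 4.09e-13, -1.36 without the 4 libraries). The value was -1.14 for LPS libraries labelled WT against nonconfined cPLA_2_ WT libraries and -1.73 for those labelled KO against nonconfined cPLA_2_ KO libraries. *Tnfsf14* thus rose with confinement of cPLA_2_ WT cells and fell with LPS over both labels, whose genotypes are in doubt. *Ltb*, at 2866 to 3098 normalized counts with LPS, had a log2 fold change of -0.35 (SE 0.04, adjusted p = 1.37e-08), under the threshold on the fold, and -0.37 without the 4 libraries. With the same total per library the value was -0.85, still under the threshold. *Tnfsf13b*, at 90.5 to 147 normalized counts, had a value of 0.02 with a 95% interval from -0.42 to 0.47 (0.02 without the 4 libraries). Its direction depended on the scaling, with -0.47 with the same total per library and -0.04 with TMM scaling. By label it was 0.15 under WT and -0.10 under KO.

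**Figure D2:**
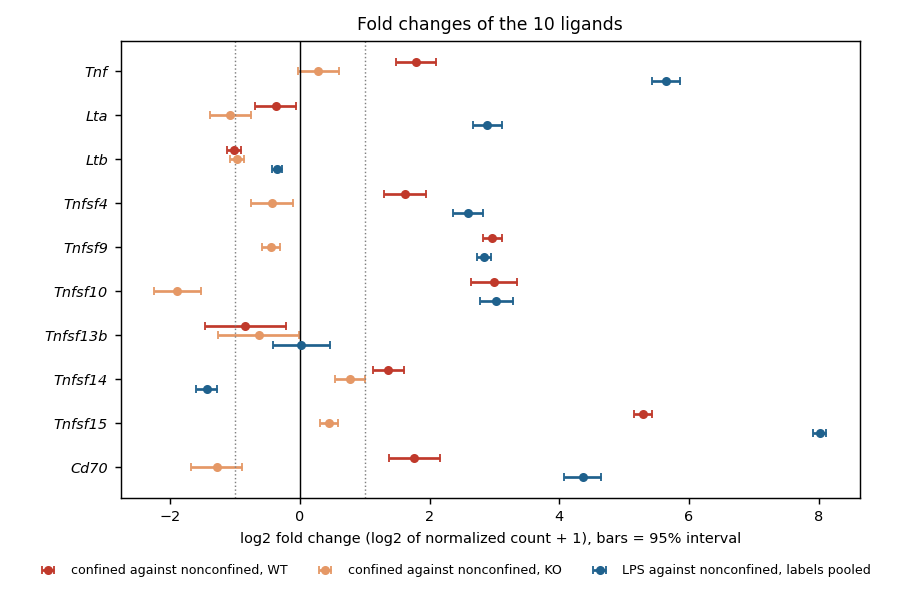
Log2 fold changes of the 10 ligands for confined against nonconfined cells of each genotype and for LPS against nonconfined cells with both labels together, with bars for the 95% interval of the limma fit and dotted lines at the threshold of 1 on either side of 0. *Tnfsf14* is at 1.37 with confinement of WT cells and at -1.44 with LPS, and *Tnfsf10* is at 2.99 in WT and -1.89 in KO cells.

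The LPS libraries labelled KO and WT were compared as labelled. By limma 0 of 10 ligands and 0 of 17875 genes were called, which is 0% in each direction, and edgeR and DESeq2 called 0 genes. At an unadjusted p under 0.05 limma gave 890 genes, or 4.98%, and 0 of the 10 ligands. Within each label the libraries were spread widely for some ligands, and in the order of *Ddx3y*. The LPS libraries with 0 and 2.12 normalized counts of *Ddx3y* held 206871 and 210952 normalized counts of *Tnf*, those with 662 and 783 held 285583 and 294859, and those with 1271 and 1476 held 356120 and 362627. *Tnfsf4* ran the other way, with 4296 and 4157, then 3361 and 3214, then 2517 and 2350 normalized counts in the same libraries. *Lta* ran as *Tnfsf4* did, with 2705 and 2806, then 2227 and 2241, then 1690 and 1814. *Epx*, the defining eosinophil gene, also spread within the label, from 5535 to 10640 normalized counts in LPS libraries labelled WT and from 5455 to 10123 in those labelled KO. These libraries were not regrouped, and no test was made.

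**Figure D3:**
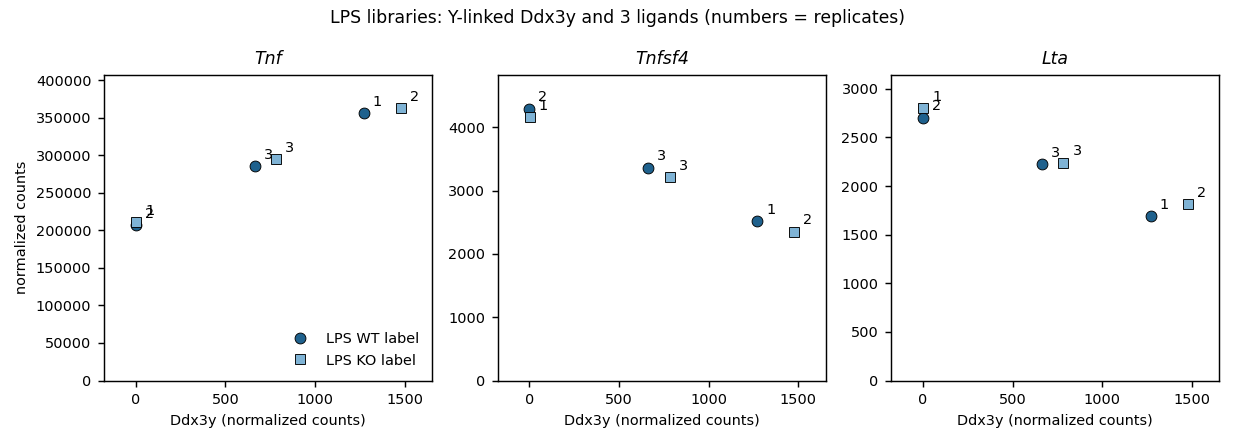
Normalized counts of *Tnf*, *Tnfsf4* and *Lta* against those of the Y-linked gene *Ddx3y* in the 6 LPS libraries, with circles for the WT label, squares for the KO label and replicate numbers beside them. Libraries of both labels lie side by side at 3 levels of *Ddx3y*, with *Tnf* between 206871 and 362627.

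Confined cells were also compared with LPS-treated cells, with the same LPS libraries in both comparisons. Confined cells were collected after 4 h and LPS-treated cells the next day, so that stimulus and time cannot be told apart in either comparison. The LPS libraries are also pooled over labels that are in doubt. Confined cPLA_2_ WT cells were lower than LPS-treated cells in 5 of 10 ligands and higher in 1, where 7.84% of all genes tested were lower and 6.97% higher. *Tnf* was 15.7-fold lower (log2 fold change -3.97, SE 0.13, adjusted p = 2.68e-16), *Lta* 7.34-fold, *Cd70* 6.57-fold and *Tnfsf15* 6.22-fold lower, and *Tnfsf14* was 5.90-fold higher (adjusted p = 3.45e-15). *Tnfsf10* was within the range of LPS libraries in confined cPLA_2_ WT cells, with a log2 difference of 0.04 (95% interval from -0.27 to 0.35), and *Tnfsf9* was slightly above it in each library without passing the test, with 0.12 (95% interval from -0.0009 to 0.25, adjusted p = 0.0873) and 0.41 with the same total per library. *Tnfsf4* was at -0.90, under the threshold, and was called at -1.001 without LPS KO replicate 2. *Tnfsf13b* was the last of the 5 called lower (log2 fold change -1.02, adjusted p = 0.00227), but its libraries overlapped and the call was lost with edgeR (-0.90), DESeq2 (-0.88), TMM scaling (-0.99), the same total per library (-0.73) and a pseudocount of 5 (-0.96). It was also lost without confined WT replicate 1 (-0.64) or 2 (-0.98), LPS WT replicate 2 (-0.97) or LPS KO replicate 1 (-0.91).

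Confined cPLA_2_ KO cells were lower than LPS-treated cells in 7 of 10 ligands and higher in 1, *Tnfsf14*, where 12.9% of all genes tested were lower and 10.7% higher. *Tnfsf15* was 203-fold (log2 fold change -7.66, adjusted p = 1.73e-27), *Cd70* 45.8-fold, *Tnf* 37.8-fold and *Tnfsf10* 31.7-fold lower. *Tnfsf9* was 9.71-fold lower in confined cPLA_2_ KO cells than with LPS. With the same total per library, calls for confined cPLA_2_ WT cells were 2150 higher and 948 lower in place of 1245 and 1402, and for confined cPLA_2_ KO cells 4090 higher and 1555 lower in place of 1914 and 2313, with shifts of the median of all genes to 0.27 and 0.47, and 5 and 8 ligands were called. Without the 4 doubtful LPS libraries, log2 fold changes for confined cPLA_2_ WT cells were -3.95 for *Tnf*, -2.63 for *Tnfsf15* and 2.49 for *Tnfsf14*. For confined cPLA_2_ KO cells they were -5.21, -7.66 and 2.38 in the same order.

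Levels were compared between genes as normalized counts per kb of merged exons. In nonconfined cPLA_2_ WT cells *Tnf* was at 3139 ± 99.7 (SD, n = 3) and *Ltb* at 2551 ± 79.2 per kb, followed by *Tnfsf9* at 491, *Tnfsf14* at 390.5, *Tnfsf4* at 306 and *Lta* at 242 per kb. *Cd70* at 51.2 and *Tnfsf15* at 37.6 per kb came next and overlapped, and *Tnfsf13b* at 13.6 and *Tnfsf10* at 9.20 per kb were lowest. In confined cPLA_2_ WT cells *Tnf* stayed first, at 10840 ± 288 per kb, with *Tnfsf9* at 3837, *Tnfsf15* at 1476 and *Ltb* at 1266 per kb next, *Tnfsf14* and *Tnfsf4* overlapping at 1008 and 944, and *Lta* and *Cd70* overlapping at 186 and 173. *Tnfsf15* moved from the 8th to the 3rd place. In confined cPLA_2_ KO cells the order was *Tnf* at 4506, *Ltb* at 1186, *Tnfsf14* at 934, *Tnfsf9* at 363 and *Tnfsf4* at 204 per kb, with *Tnfsf10* last at 2.11, and no neighbors in the order overlapped. Nonconfined cPLA_2_ KO cells had *Tnf* at 3691 and *Ltb* at 2318 per kb first, and *Tnfsf14* at 546 and *Tnfsf9* at 494 overlapped. With LPS, *Tnf* reached 172600 and 176600 per kb under the WT and KO labels, *Tnfsf15* 9242 and 9123, and *Tnfsf9* 3422 and 3620, and *Ltb*, *Tnfsf4* and *Lta* each overlapped with the next, down to *Cd70* at 1109 and 1180.

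Of the 10 ligands 6 lie in 2 rows on chromosome 17. By the coordinates of the table (GRCm39), *Ltb* (chr17:35413483-35415367), *Tnf* (chr17:35418343-35420984) and *Lta* (chr17:35422140-35424327) lie in a row with gaps of 2975 and 1155 bases, *Ltb* on the forward and the others on the reverse strand. Of these neighbors, *Tnf* rose, *Ltb* fell and *Lta* was not called in confined cPLA_2_ WT cells. *Tnfsf9* (chr17:57412384-57414757), *Cd70* (chr17:57452997-57456777) and *Tnfsf14* (chr17:57496474-57501184) form a second row with gaps of 38239 and 39696 bases. All 3 rose in confined cPLA_2_ WT cells, and with LPS *Tnfsf9* and *Cd70* rose and *Tnfsf14* fell. *Tnfsf15* (chr4:63642837-63663350) lies 87710 bases from *Tnfsf8*, *Tnfsf4* (chr1:161223009-161245777) lies 76446 bases from *Tnfsf18*, *Tnfsf10* is at chr3:27371176-27397122 and *Tnfsf13b* at chr8:10056465-10087845. Annotated genes overlap *Lta*, *Ltb*, *Tnfsf9*, *Tnfsf13b*, *Tnfsf14* and *Tnfsf15*, so that reads of such genes may not be told apart. Per the study's methods the libraries were strand-specific, but whether the counting used strand is not given in the sources used here.

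Promoters were read for 7 of the 10 ligands from RefSeq (table on GRCm38.p6, 250 bases before to 50 after the start of the gene, 8 windows), and each window was found once in GRCm39. *Tnfsf4*, *Tnfsf9* and *Cd70* were not matched. The NF-kB consensus, searched on both strands, was found in 1 of the 7 ligands, *Ltb*, as GGAAAGTCCC starting 87 bases before the start, and 8.46% of 32851 promoters in the table hold it. The letters TATAAA on the strand of the gene were found in 2 ligands, starting 29 bases before the start in *Tnf* and 167 before it in *Lta*, and 8.32% of promoters hold them. Windows are shown for *Tnf* and *Ltb*, neighbors that moved in opposite directions in confined cPLA_2_ WT cells, and for *Tnfsf15*, the ligand with the largest rise, in which neither motif was found. They lie at chr17:35420934-35421233 (reverse strand), chr17:35413233-35413532 (forward strand) and chr4:63663247-63663546 (reverse strand), and capitals mark TATAAA in *Tnf* and the NF-kB consensus in *Ltb*.
Tnf: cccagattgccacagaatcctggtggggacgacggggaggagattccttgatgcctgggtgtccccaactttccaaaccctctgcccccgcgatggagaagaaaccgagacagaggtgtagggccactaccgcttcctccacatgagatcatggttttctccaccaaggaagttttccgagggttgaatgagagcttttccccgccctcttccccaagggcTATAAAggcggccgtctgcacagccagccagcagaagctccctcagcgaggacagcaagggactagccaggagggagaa
Ltb: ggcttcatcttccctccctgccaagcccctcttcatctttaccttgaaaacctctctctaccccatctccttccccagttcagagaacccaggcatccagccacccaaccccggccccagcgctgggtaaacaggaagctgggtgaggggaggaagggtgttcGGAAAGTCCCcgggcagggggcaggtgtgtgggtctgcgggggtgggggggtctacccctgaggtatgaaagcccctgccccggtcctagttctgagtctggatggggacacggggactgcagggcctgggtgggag
Tnfsf15: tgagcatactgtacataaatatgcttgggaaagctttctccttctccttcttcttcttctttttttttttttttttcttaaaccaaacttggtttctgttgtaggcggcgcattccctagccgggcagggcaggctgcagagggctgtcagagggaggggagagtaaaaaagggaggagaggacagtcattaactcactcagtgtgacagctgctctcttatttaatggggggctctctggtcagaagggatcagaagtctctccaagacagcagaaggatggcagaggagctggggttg
A match describes the letters and is not a measured binding site, and a window without a match says nothing of the factor.

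The other ligands of the family were read from a list of 8 genes. Of these, 4 passed the filter in 3 entries, since *Tnfsf12* and *Tnfsf13* share an entry. The median log2 fold change of the 3 entries was -0.19 in confined cPLA_2_ WT cells, 0.30 in confined cPLA_2_ KO cells and 0.33 with LPS. In confined cPLA_2_ WT cells 1 entry rose, where 11.4% of all genes tested were higher. It was *Tnfsf11*, which encodes RANK ligand, at 126 to 197 normalized counts in confined and 0 to 1.52 in nonconfined cPLA_2_ WT libraries (adjusted p = 1.68e-08), which is too few reads in the latter for a fold. In confined cPLA_2_ KO libraries *Tnfsf11* was at 0 to 8.63 normalized counts, and its interaction was called lower (adjusted p = 3.61e-05), again with too few reads for a fold. *Tnfsf8*, the ligand of CD30 and neighbor of *Tnfsf15*, was at 2884 to 2974 normalized counts in nonconfined cPLA_2_ WT, 2363 to 2488 in confined cPLA_2_ WT, 2253 to 2369 in nonconfined cPLA_2_ KO and 816 to 887 in confined cPLA_2_ KO libraries. It fell in cPLA_2_ KO cells (log2 fold change -1.44, adjusted p = 3.64e-08) and was not called in cPLA_2_ WT cells (-0.27, adjusted p = 0.117), with an interaction of -1.18 (adjusted p = 0.000119). With LPS 1 entry rose by limma, *Tnfsf11*, at 32.3 to 89.1 normalized counts, where 15.6% of all genes tested were higher. The entry of *Tnfsf12* and *Tnfsf13*, at 1046 to 1206 normalized counts with LPS and 2182 to 2267 in nonconfined libraries, had a log2 fold change of -0.99 (adjusted p = 7.52e-16), just short of the threshold on the fold, and edgeR and DESeq2 each called it lower.

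Of 12 receptors of these ligands 10 passed the filter. In confined cPLA_2_ WT cells 2 rose, 2 fell and 6 were not called, where 11.4% of all genes tested were higher and 7.62% lower, with a median log2 fold change of 0.14 beside -0.01 for all genes tested. Counts of 2 among 10 genes do not set the receptors apart from these shares. *Tnfrsf1b*, which encodes TNFR2, was at 3983 to 4435 normalized counts in nonconfined and at 19308 to 20986 in confined cPLA_2_ WT libraries (4.83-fold, adjusted p = 2.67e-15), and *Tnfrsf9*, the receptor of CD137 ligand, rose 4.11-fold (adjusted p = 1.36e-19). *Tnfrsf4*, which encodes OX40, fell (log2 fold change -1.86, adjusted p = 4.95e-09), as did *Tnfrsf25*, which encodes DR3, at 7.11 to 34.4 normalized counts in these libraries. In cPLA_2_ KO cells 1 receptor rose and 3 fell with confinement, where 6.43% of all genes tested were higher and 5.53% lower. *Tnfrsf1b* rose (2.07-fold, adjusted p = 2.73e-09), and *Tnfrsf13c*, the BAFF receptor, fell (log2 fold change -1.35, adjusted p = 2.75e-05). *Tnfrsf4* fell from 280.2 to 320.3 normalized counts in nonconfined to 75.5 to 119 in confined cPLA_2_ KO libraries (log2 fold change -1.68, adjusted p = 4.93e-08). *Tnfrsf25* fell from 42.3 to 51.4 normalized counts to 7.55 to 11.7 (log2 fold change -2.26, adjusted p = 6.28e-05). Both thus fell in cPLA_2_ WT and in cPLA_2_ KO cells, and their interactions of 0.18 (95% interval from -0.32 to 0.67) and -0.79 (from -1.935 to 0.36) were not called. Interactions were called for 3 receptors, all negative, where 6.56% of all genes tested were lower, with *Tnfrsf1b* at -1.22, *Tnfrsf9* at -1.04 and *Tnfrsf13c* at -1.52. With LPS 3 receptors rose, *Tnfrsf1b* (7.05-fold), *Tnfrsf13c* (6.35-fold) and *Tnfrsf9* (5.44-fold), and 1 fell, *Tnfrsf25*, where 15.6% of all genes tested were higher and 13.4% lower. *Tnfrsf9* and its ligand *Tnfsf9* thus rose together in both cPLA_2_ WT confinement and LPS. In cPLA_2_ KO cells *Tnfrsf9* was at 1767 to 1879 normalized counts when nonconfined and at 3531 to 3725 when confined, a log2 fold change of 0.9988 (adjusted p = 9.79e-14) just short of the threshold, while *Tnfsf9* had a value in the other direction (-0.44). *Tnfrsf4* fell and *Tnfsf4* rose in confined cPLA_2_ WT cells.

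The list for shedding of TNF and control of its mRNA held 11 genes, and all passed the filter. In confined cPLA_2_ WT cells 3 rose and 0 fell by limma, where 11.4% of all genes tested were higher and 7.62% lower, with a median log2 fold change of 0.59, while edgeR and DESeq2 called 2 higher and 0 lower. At an unadjusted p under 0.05 limma had 7 higher and 3 lower, where 30% of all genes tested were higher and 30.5% lower. *Rhbdf2* encodes iRhom2, which brings the protease ADAM17 to the cell surface, and it was at 2780 to 3229 normalized counts in nonconfined and at 7423 to 8147 in confined cPLA_2_ WT libraries (2.59-fold, adjusted p = 4.14e-14). *Timp3*, an inhibitor of ADAM17, rose 2.00-fold (adjusted p = 0.000909), and *Rhbdf1* rose at 1.97 to 20.3 normalized counts with groups close to each other (adjusted p = 0.0315) and was the gene that edgeR and DESeq2 did not call. By limma 0 of 11 were called in cPLA_2_ KO cells, where edgeR called 1 lower, DESeq2 called 0 and 3 were higher and 4 lower at an unadjusted p under 0.05, beside 25.9% and 26.1% of all genes, and the interaction was called for *Timp3* (-1.96 on the log2 scale, adjusted p = 0.000103), 1 of 11 where 6.56% of all genes tested were lower. With LPS 7 rose and 1 fell, where 15.6% of all genes tested were higher and 13.4% lower. The gene that fell was *Zfp36l2*, an mRNA-destabilizing protein of the family that acts on *Tnf* mRNA, from 20561 to 24564 normalized counts in nonconfined to 4335 to 5342 in LPS libraries (log2 fold change -2.22, adjusted p = 7.41e-21). *Rhbdf1* (4.45-fold), *Rhbdf2* (2.95-fold) and *Adam17* (2.89-fold) were the largest of the 7 rises.

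Genes with a symbol and a mean of at least 100 normalized counts, 10545 in all, were ordered by how closely they followed each ligand over the 18 libraries (Pearson r of log2 values, a description that the 6 groups dominate). *Stat5a* (r = 0.999), *Tor1aip2* and *Car13* were nearest to *Tnfsf15*. *Ccl3*, a chemokine, and *Itgb1* were nearest to *Tnf* (both r = 0.998), *Car2* to *Lta* (r = 0.994), *Napsa* to *Ltb* (r = 0.985) and *Gstt3* to *Tnfsf4* (r = 0.994). *Slc9a3r1* was nearest to *Tnfsf9* (r = 0.991), *Cd69*, an early activation antigen, to *Tnfsf10* (r = 0.996), *Ubl3* to *Tnfsf14* (r = 0.990) and *Sap30* to *Cd70* (r = 0.995). For *Tnfsf13b* the closest was the entry of *Hbb-b2* and *Hbb-bt* with r = 0.856, the lowest of the 10.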

How the data were processed

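Bulk RNA-seq of bone marrow-derived DCs was analysed in 18 libraries, 3 in each of 6 groups, grouped and numbered by their labels. A protocol field names LPS for all samples, and titles and treatment entries were followed instead. Per the submitters' processing notes, reads were mapped with STAR 2.7.5a to GRCm39 (mm39) and counted with featureCounts 1.5.0, with R 3.5.3. The deposited table holds a gene-level signal, which the authors made by dividing gene counts by DESeq2 size factors, with no scaling for length. Whole reads were recovered from these values, and 100% came out whole to within 8.15e-10 reads. GENCODE (GRCm39) holds 22591 of the symbols once, of which 22565 overlap their entry in position.

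After adding a pseudocount of 1 and taking log2, all libraries were fitted with limma 3.58.1 under R 4.3.3 (lmFit, contrasts.fit and eBayes with trend, a mean per group), with Benjamini-Hochberg adjustment over 17875 genes within each of 9 comparisons. Calls needed both an adjusted p below 0.05 and a log2 fold change beyond 1 in either direction. Intervals are those of the fit. The pipeline was tested on simulated counts for confined against nonconfined WT, with 199 of 200 changed genes recovered and 3 false calls among 16431 genes. All planted changes were beyond the threshold on the fold, in genes above a minimum level and with the same spread for all genes. The simulation therefore does not bear on changes near the threshold, on genes at low levels or on LPS libraries. Alternatives were other pseudocounts (0.5 and 5) and filters (none, and 100 normalized counts), equal totals or TMM factors for scaling, count models on the recovered reads with edgeR 4.0.16 and DESeq2 1.42.0, the compared groups alone, the replicate number as a term, other call rules and each library left out. Figures were drawn with matplotlib 3.10.9.

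The members and gene lists were chosen with earlier results of these data known. All 10 ligands are named. From the other lists, at most the 4 called genes with the largest change per list and main comparison are named, with the genes of the label check, the genes most like a ligand, and the most abundant and the defining genes of marker lists. *Tnfsf18* is named for its position, and the entry of *Tnfsf12* and *Tnfsf13* was singled out after its values were seen. A marker list is not reported here.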

Additional observations from a re-analysis of the deposited data

Results flagged for a closer look

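For 6 ligands the response to confinement differed between cPLA_2_ WT and cPLA_2_ KO cells by the interaction test of limma, and each was lower in cPLA_2_ KO cells. The differences on the log2 scale were -1.50 for *Tnf*, -2.05 for *Tnfsf4*, -3.41 for *Tnfsf9*, -4.88 for *Tnfsf10*, -4.84 for *Tnfsf15* and -3.05 for *Cd70*. Genotype and donor sex cannot be told apart in these libraries, and summed neutrophil genes were at 134700 to 143580 normalized counts in confined cPLA_2_ WT and at 313120 to 328870 in confined cPLA_2_ KO libraries, whose part in these differences was not tested. Groups of 3 libraries were not tested for single libraries that stand apart.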

How the results depend on the processing

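Of the 1850 values that the ligands took under alternatives, 12 lost a call, 32 gained one and 0 called values changed sign. Among values that were not called, 32 changed sign. Looser call rules gave 25 of the gains, and *Tnfsf13b* in confined cPLA_2_ WT cells against LPS gave 9 of the losses. Of 185 counts of ligands called, 4 moved by more than 1.5 times, all with looser call rules. For confined against nonconfined cPLA_2_ KO cells the count was 3, with 8 at an adjusted p alone and 6 at an unadjusted p of 0.05 with a fold of 1.5, where 46.3% and 23.6% of all genes passed. For nonconfined cPLA_2_ KO against cPLA_2_ WT cells it was 0, with 2 and 1 under the same rules, where 8.88% and 5.59% passed. These moves follow from the rules themselves.

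Leaving out single libraries, the count ranged from 7 to 8 for confined against nonconfined cPLA_2_ WT cells, from 2 to 4 for cPLA_2_ KO cells and from 5 to 7 for confined cPLA_2_ WT cells against LPS, and stayed at 6 for the interaction, 7 for confined cPLA_2_ KO against cPLA_2_ WT cells, 8 for LPS against nonconfined and 8 for confined cPLA_2_ KO cells against LPS. Calls on all genes moved too. For cPLA_2_ KO confinement they were 929 higher and 935 lower without confined KO replicate 2, and 1274 and 974 without confined KO replicate 1. For cPLA_2_ WT confinement they were 1864 and 1343 without confined WT replicate 2, and 2065 and 1311 without confined WT replicate 1. Against LPS, confined cPLA_2_ WT cells gave 1029 and 1384, and 1316 and 1364, without the same 2 libraries. LPS libraries labelled WT against nonconfined cPLA_2_ WT cells, and those labelled KO against nonconfined cPLA_2_ KO cells, gave 8 calls each. Of 17875 genes, 2688 were higher and 2201 lower under the WT label, and 2686 and 2300 under the KO label.

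Replicate numbers were not taken to pair the libraries, since in 0 of the 15 pairs of groups were all 3 correlations of deviations above 0.1. This rule does not decide whether libraries share a batch, and it does not compare libraries with different numbers. For confined cPLA_2_ KO and cPLA_2_ WT cells they were 0.34, 0.21 and 0.04. With a replicate block the counts were 8, 3, 6 and 7 for confinement in cPLA_2_ WT cells, in cPLA_2_ KO cells, the interaction and confined cPLA_2_ KO against cPLA_2_ WT cells, and 8, 6 and 8 for LPS against nonconfined and confined cPLA_2_ WT and cPLA_2_ KO cells against LPS. The block changed none of these counts. With it, 2032 of 17875 genes were higher and 1360 lower for confinement in cPLA_2_ WT cells, and 1150 and 978 in cPLA_2_ KO cells. The interaction was higher for 189 and lower for 1151 genes, and confined cPLA_2_ KO against cPLA_2_ WT cells gave 492 and 1298. LPS against nonconfined cells gave 2793 and 2402. Confined cPLA_2_ WT cells against LPS gave 1243 and 1400, and confined cPLA_2_ KO cells 1913 and 2310.

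*Tnfsf10* in confined cPLA_2_ KO cells, at 10 to 14 reads a library, is limited by depth, and *Tnfsf13b* by the spread between libraries. The error of the fit is shared by all 6 groups, so that ligands that vary among LPS libraries have a wider error in the other comparisons too.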
